A study of Mus musculus with 12 samples.

Results

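The genes described here are 7 regulators of G protein signalling (RGS genes), *Rgs1*, *Rgs2*, *Rgs3*, *Rgs10*, *Rgs14*, *Rgs16* and *Rgs19*, taken by gene symbol from the 24439 gene names measured in each of 12 mouse RNA-Seq libraries. They are 7 of 22 RGS genes in the files and were selected on their FPKM values in these same 12 libraries, over all the comparisons below, so their levels and differences are given as a description. Where limits on fold and adjusted P are named for them, these only place the genes among all genes and test nothing about them. All 7 passed the filter on low values, which kept 12442 genes.

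The libraries came from CD4 T cells taken from the spleens of C42 mice, which carry a 130 kb fragment of human DNA with the *IL3* and *CSF2* genes as a transgene on the C57BL/6J background. Every group shared this transgene and the same first steps: activation with concanavalin A (ConA, 2 µg/ml) for 40 h, which turned the cells into proliferating T-blast cells (TB), and then culture in 50 U/ml IL-2. The 4 groups of 3 libraries were TB IL-2 (IL-2 kept for the last 16 h), TB IL-2nil (IL-2 withdrawn for the last 16 h), TB+ IL-2 and TB+ IL-2nil, where + marks cells given PMA/I, that is, the phorbol ester phorbol myristate acetate (20 ng/ml) with calcium ionophore (2 µM), over the final 2 h. PMA/I takes the place of a signal through the T cell receptor, and the design thus asked what IL-2 did before and after that signal and what the signal did with and without IL-2.

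RGS proteins switch off signals from G protein-coupled receptors. An active receptor loads the alpha subunit of a G protein with GTP, and the RGS domain speeds up the hydrolysis of that GTP, so that the alpha and beta-gamma subunits join again and the signal ends. In lymphocytes, chemokine receptors and the sphingosine 1-phosphate receptors signal this way, largely through Gi proteins, and RGS proteins are known to limit how cells migrate towards chemokines. The small R4 subfamily holds *Rgs1*, *Rgs2*, *Rgs3* and *Rgs16*, the R12 subfamily holds *Rgs10* and *Rgs14*, and *Rgs19* belongs to the RZ subfamily.

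The group labels of a pair of libraries could not be taken as given. The FPKM of each library were first rescaled to a common sum and quantile-normalized, and a common factor was allowed for each column compared. In the study's list of differentially expressed genes, 10 of 12 columns then met the library of the same label. The columns TB IL-2nil replicate 3 and TB+ IL-2 replicate 3 each met the library labelled as the other. Each match held for at least 99.86% of 1381 genes (values within 0.1%). The library labelled TB IL-2nil replicate 3 held 1368 FPKM of *Il2*, a gene induced by PMA/I, and the library labelled TB+ IL-2 replicate 3 held 0.290 FPKM. These libraries were placed in each other's group throughout, and results are also given as labelled and without both.

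The libraries listed 13449 to 14818 genes above 0. Depth is not given in the files, but the steps between low FPKM values put the libraries at 0.409 to 1.25 times their median depth, with TB IL-2nil replicate 2 the shallowest. Short non-coding RNAs took 16.6 to 43.8% of the summed FPKM in TB IL-2 and 21.3 to 37.5% in TB IL-2nil. After PMA/I they took 22.2 to 27.5% in TB+ IL-2 and 33.0 to 53.2% in TB+ IL-2nil. Levels below are TPM (transcripts per 1000000, corrected for gene length) after scaling to a common upper quartile, and differences are on the log2(TPM + 1) scale with the SE of the limma fit. The scaling divided TPM by 0.580, 0.809 and 0.942 in TB+ IL-2nil, which raised all its libraries, and by 0.935 to 1.05 in TB+ IL-2. The median difference over all 12442 genes was -0.13 for IL-2 before stimulation, -0.04 for IL-2 after it, -0.22 for PMA/I with IL-2 and -0.38 for PMA/I without IL-2.

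Before scaling, the summed marker genes of CD4 T cells (*Cd3d*, *Cd3e*, *Cd3g*, *Cd4*, *Cd28*) lay between 848 and 2580 TPM, with the highest range (1971 to 2580) in TB IL-2nil. Markers of other cells were low but moved with the groups. B cell markers (*Cd79a*, *Cd79b*, *Ms4a1*) summed to 22.6 to 28.5 TPM in TB IL-2nil, 5.71 to 11.9 in TB IL-2, 2.20 to 2.86 in TB+ IL-2 and 3.60 to 11.4 in TB+ IL-2nil, so that they were highest in the unstimulated cells without IL-2, where *Rgs3*, *Rgs10* and many receptors were higher than with IL-2. The 3 regulatory T cell markers (*Foxp3*, *Ikzf2*, *Lrrc32*) summed to 35.5 to 64.8 TPM in TB IL-2 and to 4.53 to 16.5 in the other groups. Those of CD8 T cells (*Cd8a*, *Cd8b1*) reached 42.8 TPM, those of myeloid cells 4.74 and those of platelets and megakaryocytes 2.76, while the 3 NK cell markers reached 0.295 with *Ncr1* listed at 0 in all libraries. Their part in the results below was not tested, and fewer cells of a type cannot be told apart from less RNA per cell.

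On the mm9 genome, *Rgs1* (chr1:146091102-146096372) and *Rgs2* (chr1:145846468-145851291) lie on the minus strand in a run of RGS genes with no other coding gene between them. In the order *Rgs2*, *Rgs13*, *Rgs1*, *Rgs21* and *Rgs18*, the gaps were 134.5, 66.6, 270.4 and 211.4 kb. Transcript levels differed along this run. *Rgs13* never passed 0.0996 TPM before scaling and *Rgs18* never passed 0.424, and *Rgs21* was listed at 0 in all 12 libraries. *Rgs16* (chr1:155587479-155592598, plus strand) lies 42.7 kb from *Rgs8*, which reached 0.0486 TPM before scaling. The others stand alone, *Rgs3* at chr4:62220881-62364052, *Rgs10* at chr7:135517135-135562272, *Rgs14* at chr13:55471093-55486048 and *Rgs19* at chr2:181423124-181428682. *Rgs3* overlaps an annotated non-coding transcript on the other strand (*Gm11209*) and *Rgs10* one on its own strand (*Gm15503*), so reads in those stretches may be shared.

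The 250 bases before the RefSeq start of transcription are shown for *Rgs2*, *Rgs16* and *Rgs10*. *Rgs2* and *Rgs16* had their lowest means in TB IL-2 and were high after PMA/I, and *Rgs10* was high after IL-2 withdrawal. RefSeq upstream sequences (from GRCm38.p6) were at hand for 5 of the 7 genes, *Rgs1* and *Rgs14* being the exceptions, and each matched mm9 exactly once. The RefSeq starts lie inside the GENCODE gene spans given above, so the windows overlap those spans by a few bases for *Rgs2* and *Rgs16* and over their whole length for *Rgs10*. Capitals mark the core of the cAMP response element (TGACG) and the GC box (GGGCGG), on either strand.
Rgs2 (chr1:145851280-145851529, minus strand): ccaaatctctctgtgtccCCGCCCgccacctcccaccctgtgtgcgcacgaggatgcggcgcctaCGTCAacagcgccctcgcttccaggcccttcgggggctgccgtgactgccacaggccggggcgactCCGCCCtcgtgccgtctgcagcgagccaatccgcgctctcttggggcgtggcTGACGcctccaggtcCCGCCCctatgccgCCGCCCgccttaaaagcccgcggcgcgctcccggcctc
Rgs16 (chr1:155587233-155587482, plus strand): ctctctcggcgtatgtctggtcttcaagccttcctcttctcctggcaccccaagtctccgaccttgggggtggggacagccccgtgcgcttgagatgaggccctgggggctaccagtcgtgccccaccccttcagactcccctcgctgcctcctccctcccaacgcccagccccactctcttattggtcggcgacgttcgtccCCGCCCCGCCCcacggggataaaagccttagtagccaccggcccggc
Rgs10 (chr7:135561687-135561936, minus strand): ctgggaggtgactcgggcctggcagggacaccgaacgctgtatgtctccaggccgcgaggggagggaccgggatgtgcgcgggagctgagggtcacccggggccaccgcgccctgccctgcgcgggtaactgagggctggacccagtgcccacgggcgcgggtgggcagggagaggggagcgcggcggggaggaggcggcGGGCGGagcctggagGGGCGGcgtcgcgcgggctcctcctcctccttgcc

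*Rgs2* holds the core in 2 places and the GC box in 4, *Rgs16* holds a pair of GC boxes that overlap by 1 base, and *Rgs10* holds 2 GC boxes. Over all 32851 promoters of the table, 17.8% hold the core and 32.7% a GC box in the same window. None of these 3 windows holds the letters of AP-1 (TGANTCA, 6.75% of all promoters), the full cAMP response element (TGACGTCA, 1.55%, which contains the core), NFAT (GGAAAA, 20.4%), STAT (TTCNNNGAA, 7.02%), FOXO (TGTTTAC, 3.17%), NF-kB (GGGNN joined to TTTCC, 1.41%), EGR (GCGTGGGCG, 0.536%) or the TATA box (TATAAA, 12.4%). G and C made up 72.4%, 66.4% and 76.4% of the windows of *Rgs2*, *Rgs16* and *Rgs10*.

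The summed level of the 7 mRNAs was higher after IL-2 withdrawal and after PMA/I, and the makeup of the sum differed. In the libraries of TB IL-2 they summed to 235 to 252 TPM, in TB IL-2nil to 408 to 531, in TB+ IL-2 to 468 to 677 and in TB+ IL-2nil to 952 to 1000.1. Without the upper-quartile scaling the ranges of the stimulated groups overlap. *Rgs10* had the largest mean share before stimulation, with 33.8 ± 9.67% (SD, n = 3) of the sum in TB IL-2 and 46.2 ± 9.54% in TB IL-2nil. After PMA/I, *Rgs1* led with 58.5 ± 12.2% in TB+ IL-2 and 53.8 ± 3.39% in TB+ IL-2nil. *Rgs16* went from 0.0959 ± 0.0767% of the sum in TB IL-2 to 18.2 ± 2.00% in TB+ IL-2nil, whereas *Rgs14* went from 14.01 ± 2.84% to 0.603 ± 0.345%.

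**Figure D1:**
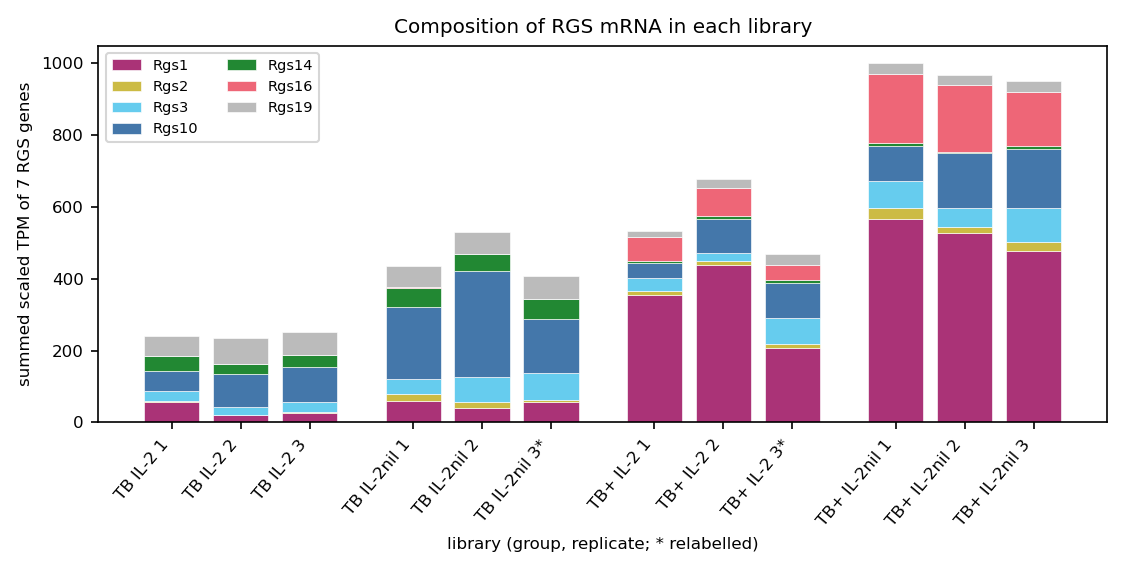
Summed scaled TPM (y axis, from 0) of the 7 RGS genes in each of the 12 libraries, ordered by group and replicate, with 1 colour per gene; an asterisk marks the libraries labelled as the other's group. The bars rise from 235 to 252 TPM in TB IL-2 to 952 to 1000.1 in TB+ IL-2nil, and *Rgs1* and *Rgs16* take most of the bar after PMA/I.

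*Rgs1*, a brake on chemokine-driven migration of lymphocytes, was the most abundant RGS mRNA after PMA/I. It measured 56.0, 20.5 and 26.5 TPM in the libraries of TB IL-2 and 60.1, 40.9 and 57.2 in TB IL-2nil. After stimulation it measured 354, 439 and 208 TPM in TB+ IL-2 and 568, 528 and 477 in TB+ IL-2nil. The stimulated groups overlapped neither the unstimulated groups nor each other, and the unstimulated groups overlapped each other. Without the upper-quartile scaling the stimulated groups overlap each other too. Their FPKM were 110, 143 and 80.5 in TB+ IL-2 and 118, 132 and 127 in TB+ IL-2nil. Mean TPM was 9.72-fold higher after PMA/I with IL-2 and 9.94-fold higher without IL-2, and the differences were the same size on the log2 scale (3.31 ± 0.35 (SE) in both). As labelled they were 2.69 in both, and without both libraries 3.61 and 3.37. The lower mean with IL-2 after stimulation (334 against 524 TPM, log2 -0.71 ± 0.35) rested partly on the library labelled TB IL-2nil replicate 3, at 208 TPM, since without both libraries it was -0.41.

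*Rgs16*, which acts on Gi and Gq alpha subunits, showed the largest differences of the 7 genes for PMA/I. It stood at 0.41, 0.22 and 0.05 TPM in TB IL-2 and at 1.49, 0.34 and 0.60 in TB IL-2nil, and at 66.04, 80.04 and 41.1 in TB+ IL-2 and 193, 188 and 151 in TB+ IL-2nil. Each stimulated library was above every unstimulated library, and the stimulated libraries without IL-2 were above those with IL-2. The unstimulated groups overlapped (log2 -0.52 ± 0.28 for TB IL-2 minus TB IL-2nil). The log2 difference for PMA/I was 5.65 ± 0.28 with IL-2 and 6.66 ± 0.28 without it, and a ratio of means is not given because the unstimulated values lie near the lowest that the files resolve. After stimulation, mean TPM was 2.84-fold higher without IL-2 (log2 -1.54 ± 0.28 for TB+ IL-2 minus TB+ IL-2nil, -1.27 without both libraries). As labelled, the groups with the exchanged libraries mixed values near 0 with values above 40 TPM, and the same difference became -3.11 ± 1.49.

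*Rgs2*, which favours Gq alpha subunits and also lowers cAMP production, was the RGS mRNA that was high after either treatment. It measured 3.22, 0.57 and 0.86 TPM in TB IL-2. The libraries of TB IL-2nil held 19.2, 16.8 and 5.23 TPM, those of TB+ IL-2 13.1, 11.7 and 11.3, and those of TB+ IL-2nil 29.7, 17.4 and 25.0. TB IL-2 thus lay below all other groups, while TB IL-2nil overlapped both stimulated groups. Mean TPM was 8.88-fold higher after IL-2 withdrawal (log2 -2.50 ± 0.45 for TB IL-2 minus TB IL-2nil) and 7.77-fold higher after PMA/I with IL-2 (log2 2.49 ± 0.45). Both ratios are imprecise, since they rest on the low and spread values of TB IL-2 (1.55 ± 1.45 TPM, SD, n = 3). After PMA/I without IL-2 the difference was 0.90 ± 0.45, from 13.7 ± 7.47 (SD, n = 3) to 24.0 ± 6.24 TPM. The lowest TB IL-2nil value, 5.23 TPM, came from the library labelled TB+ IL-2 replicate 3, and without both libraries the last difference was 0.37. As labelled, the withdrawal difference was -2.83 ± 0.43.

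*Rgs3*, whose long forms carry further domains beside the RGS domain, had higher means without IL-2, and its groups overlapped in both comparisons for PMA/I. It measured 29.4, 22.3 and 28.1 TPM in TB IL-2, 42.1, 68.4 and 75.6 in TB IL-2nil, 36.05, 21.999 and 69.8 in TB+ IL-2, and 73.9, 50.8 and 94.7 in TB+ IL-2nil. The unstimulated groups did not overlap, with a mean 2.33-fold higher in TB IL-2nil (log2 -1.16 ± 0.38 for TB IL-2 minus TB IL-2nil). The stimulated groups overlapped through the library labelled TB IL-2nil replicate 3, at 69.8 TPM. The log2 difference with IL-2 after stimulation was -0.87 ± 0.38, and -1.30 ± 0.33 without both libraries. For PMA/I it was 0.52 ± 0.38 with IL-2 and 0.23 ± 0.38 without it, and the latter turned to -0.31 without the upper-quartile scaling.

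*Rgs10*, a short protein that is little more than an RGS domain and acts on Gi alpha subunits, also had higher means without IL-2. Its libraries held 54.1, 92.3 and 99.3 TPM in TB IL-2 and 201, 296 and 150 in TB IL-2nil. Those after stimulation held 40.1, 94.8 and 98.1 TPM in TB+ IL-2 and 99.6, 154 and 164 in TB+ IL-2nil. With IL-2 the values lay below those without IL-2 in both states, by a narrow margin after stimulation (98.1 against 99.6 TPM). Without the upper-quartile scaling the stimulated groups overlap, with FPKM of 12.4, 30.9 and 37.9 in TB+ IL-2 and 20.8, 38.4 and 43.6 in TB+ IL-2nil. Mean TPM was 2.63-fold higher in TB IL-2nil than in TB IL-2 (log2 -1.38 ± 0.39) and 1.79-fold higher in TB+ IL-2nil than in TB+ IL-2 (log2 -0.91 ± 0.39). As labelled these differences were -1.18 and -0.70, and without both libraries -1.61 and -1.13. The log2 difference for PMA/I was -0.13 ± 0.39 with IL-2 and -0.61 ± 0.39 without it, and the groups overlapped in both comparisons.

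*Rgs14*, a scaffold that binds Gi alpha subunits through a second site and also binds Ras proteins, was low after PMA/I. It measured 40.8, 26.9 and 33.9 TPM in TB IL-2 and 53.1, 47.6 and 56.5 in TB IL-2nil, against 6.27, 6.16 and 8.89 in TB+ IL-2 and 6.86, 2.18 and 8.56 in TB+ IL-2nil. Mean TPM was 4.77-fold lower after PMA/I with IL-2 (log2 -2.10 ± 0.35) and 8.93-fold lower without IL-2 (log2 -3.10 ± 0.35). As labelled the values were -1.26 ± 0.86 and -2.26 ± 0.86, and without both libraries -2.25 and -3.05. Before stimulation TB IL-2 lay below TB IL-2nil with no overlap (log2 -0.63 ± 0.35), a direction that turned to 0.22 as labelled.

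*Rgs19*, also known as GAIP and active on Gi and Gz alpha subunits, was low after PMA/I with and without IL-2. It measured 55.3, 72.0 and 63.05 TPM in TB IL-2, 59.2, 60.8 and 62.9 in TB IL-2nil, 18.96, 23.8 and 30.8 in TB+ IL-2, and 29.04, 28.4 and 31.6 in TB+ IL-2nil. The unstimulated groups overlapped each other, and the lowest unstimulated value stood above the highest stimulated one. The stimulated groups overlapped through the library labelled TB IL-2nil replicate 3, at 30.8 TPM. The log2 difference with minus without IL-2 was 0.05 ± 0.18 before stimulation and -0.29 ± 0.18 after it. The latter was 0.05 as labelled, -0.46 without both libraries and 0.09 without the upper-quartile scaling. Mean TPM was 2.59-fold lower after PMA/I with IL-2 (log2 -1.35 ± 0.18, -1.02 as labelled and -1.53 without both libraries) and 2.06-fold lower without IL-2 (log2 -1.02 ± 0.18, -0.68 and -0.99).

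**Figure D2:**
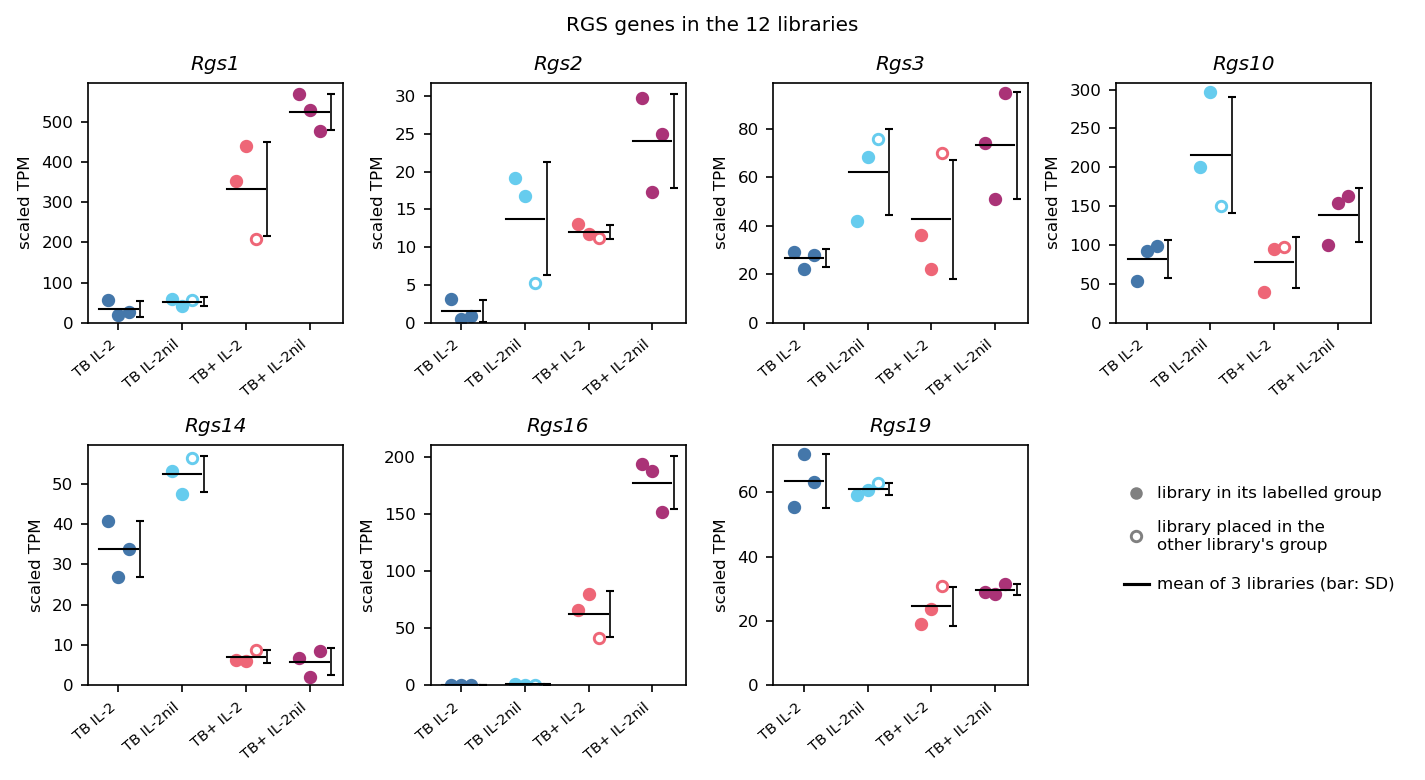
Scaled TPM (y axes, from 0, with a scale of its own for each gene) of the 7 RGS genes in the 4 groups; each point is 1 library, open points are the libraries labelled as the other's group, lines are means of 3 libraries and bars are SD. *Rgs1* and *Rgs16* stand high in both stimulated groups, *Rgs14* and *Rgs19* low in both, and *Rgs2* reaches no more than 3.22 TPM in TB IL-2 against at least 5.23 in the other groups.

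By a fold above 3 and a limma P adjusted over all genes (Benjamini-Hochberg) under 0.05, *Rgs2* was the 1 of 7 genes past both limits for IL-2 before stimulation, where 7.42% of all genes were. For PMA/I with IL-2, *Rgs1*, *Rgs2*, *Rgs14* and *Rgs16* were past both (7.04% of all genes), and for PMA/I without IL-2 *Rgs1*, *Rgs14* and *Rgs16* (18.5%). For IL-2 after stimulation none of the 7 was, against 3.62% of all genes. The genes were chosen with these contrasts known, so nothing is read from the counts. As labelled, *Rgs2* for IL-2 before stimulation was the only call among the 7 genes, with 0.0964%, 0.354%, 2.05% and 0.121% of all genes called in these 4 comparisons. Without both libraries *Rgs10* joined *Rgs2* and the other calls were as before, with 8.02%, 8.4%, 18.5% and 2.68% of all genes. In scaled TPM, groups did not overlap for 4 of the 7 genes for IL-2 before stimulation (53.2% of all genes) and 5 for PMA/I with IL-2 (51.7%). They did not overlap for 4 for PMA/I without IL-2 (64.1%) and 4 for IL-2 after stimulation (37.2%). Such shares are common among all genes.

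None of the 7 genes was past the adjusted P of the interaction term (4.23% of all genes were), so a difference between the effects of PMA/I with and without IL-2 was not shown for any of them. The effect with IL-2 minus the effect without it was 1.59 ± 0.64 on the log2 scale for *Rgs2*, 0.999 ± 0.489 for *Rgs14* and -1.02 ± 0.39 for *Rgs16*. It was 0.00 ± 0.50 for *Rgs1*, 0.28 ± 0.54 for *Rgs3*, 0.47 ± 0.55 for *Rgs10* and -0.34 ± 0.25 for *Rgs19*.

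**Figure D3:**
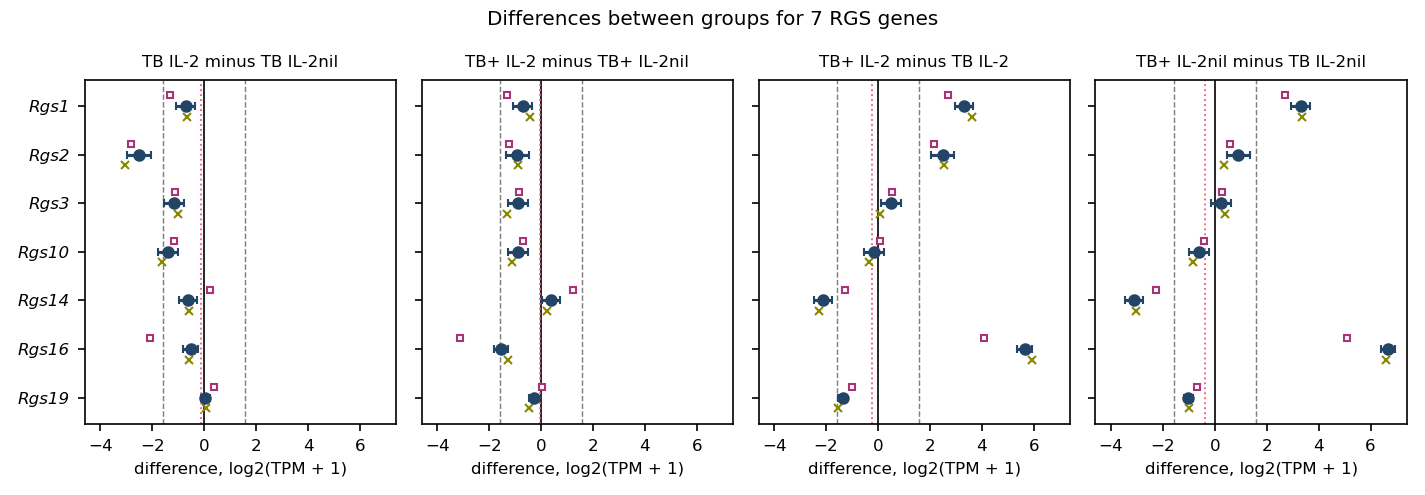
Differences on the log2(TPM + 1) scale (x axes) for the 7 RGS genes (y axis) in 4 comparisons; filled points with bars are the placed groups with the SE of the limma fit, open squares the groups as labelled, crosses the fit without both libraries, dashed lines a 3-fold difference and the dotted line the median of all genes. For PMA/I, *Rgs1* and *Rgs16* lie right of the 3-fold line and *Rgs14* left of it with and without IL-2. For IL-2 before stimulation 6 of the 7 genes lie below 0, as does the median of all genes (-0.13).

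Profiles over the 12 libraries were compared by the root mean square of the differences in log2(TPM + 1), each gene centred on its own mean. Among the 7 genes *Rgs3* and *Rgs10* were nearest (0.72), and *Rgs14* and *Rgs16* farthest apart (4.46). This measure grows with how much a gene varies. Around their own means *Rgs3* and *Rgs10* varied by only 0.69 and 0.75, so a flat gene would be about as near to each. *Rgs16* varied by 3.145. *Rgs1* and *Rgs2*, which lie in the same run on chromosome 1, were 1.14 apart. Among 8569 other genes with a mean of at least 5 TPM, those nearest to *Rgs14* were *Sipa1* (0.25) and *Tspan32* (0.26), and those nearest to *Rgs19* were *Dvl3* and *Dpf2* (both 0.16). *Jak2* and *Runx2* came closest to *Rgs1* (0.42 and 0.43), *Bach1* and *Relb* to *Rgs2* (0.47 and 0.48), and *Gch1* and *Sphk1* to *Rgs16* (0.56 and 0.58). For *Rgs3* they were *Vamp2* and *Zfp36l2* (0.31 and 0.32) and for *Rgs10* *Cd96* and *Gmfg* (0.29 and 0.33). *Sphk1*, the kinase that makes sphingosine 1-phosphate, went from 0.148 ± 0.102 (SD, n = 3) TPM in TB IL-2 to 71.6 ± 26.6 in TB+ IL-2nil.

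Of the other 15 RGS genes, 3 passed the filter, and their highest values were 1.87 TPM for *Rgs9*, 3.19 for *Rgs11* and 20.6 for *Rgs12* before scaling. *Rgs12*, the largest of the R12 subfamily, held 5.62, 2.98 and 3.17 scaled TPM in TB IL-2nil and 1.48, 0.16 and 1.05 in TB+ IL-2nil, against 15.3, 3.84 and 3.47 in TB IL-2. It fell after PMA/I without IL-2 (log2 -1.41 ± 0.55, limma adjusted P = 0.0456), the 1 difference among these 3 genes that passed, and the adjusted P was 0.193 as labelled and 0.0874 without both libraries. Of the remaining 12, *Rgs7*, *Rgs21* and *Rgs22* were listed at 0 in all libraries and the highest value was 0.611 TPM, for *Rgs20*.

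The rest of the G protein pathway was taken from 7 lists of 133 names, with 130 in the files and 90 above the filter. The lists too were chosen with earlier results of these data known. Genes named from them were picked among the largest differences past the adjusted P. Their counts and adjusted P values therefore describe these libraries and are no independent test of the pathway. With adjusted P under 0.05 by limma over all genes, 4 of the 90 were higher and 25 lower with IL-2 before stimulation (17.3% and 22.3% of all genes, 39.6% together), 15 rose and 25 fell after PMA/I with IL-2 (11.8% and 23.3%, 35.1% together), and 19 rose and 39 fell after PMA/I without IL-2 (20.1% and 41.1%, 61.2% together). With IL-2 after stimulation 4 were higher and 10 lower (12.9% and 8.4%, 21.3% together), a split that became 3 and 1 without the upper-quartile scaling. Neighbouring comparisons share a group of libraries, so each is given by itself. With the replicate number as a block, which pairs the libraries, the 29 genes for IL-2 before stimulation became 47 and the 14 after stimulation 25. As labelled they were 0 and 0 (0.121% and 0.217% of all genes), and 2 and 5 for PMA/I with and without IL-2 (0.498% and 5.38%).

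**Figure D4:**
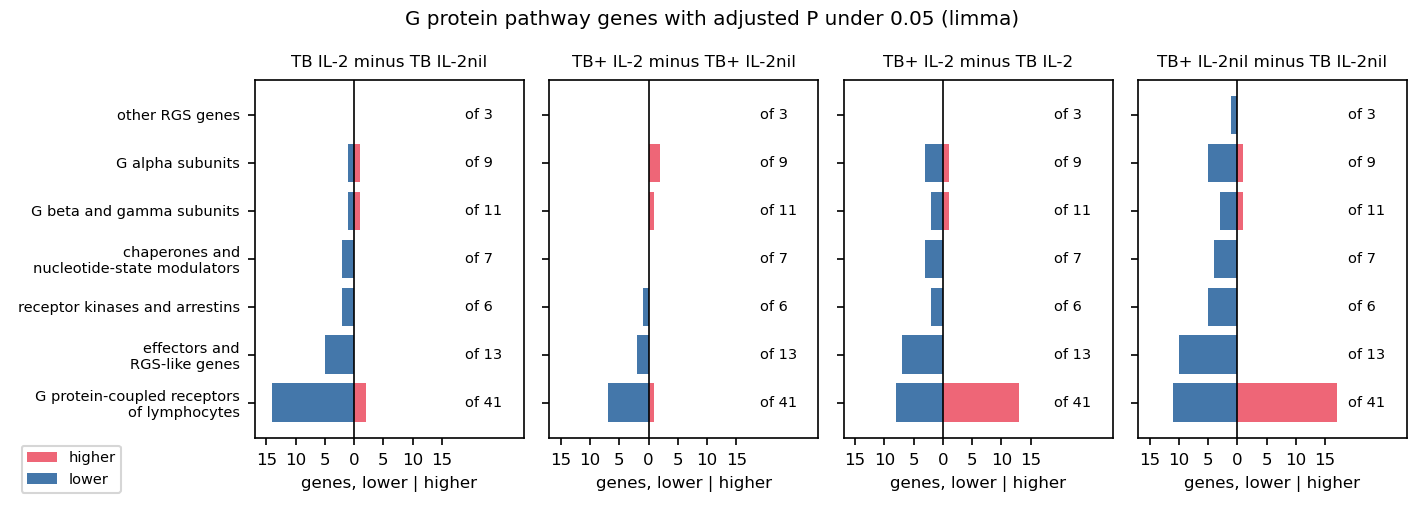
Number of genes (x axes) in each of 7 G protein pathway lists (y axis) with limma adjusted P under 0.05 in 4 comparisons, higher to the right and lower to the left of 0; the number tested stands beside each bar. Receptors give most of the genes that rose after PMA/I (13 with IL-2 and 17 without it, of 41), while no effector rose in any of the 4.

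Of the alpha subunits, 9 were above the filter, and the RGS proteins described here act mainly on those of the Gi and Gq classes. *Gnas*, the Gs subunit that drives cAMP production, was higher with IL-2 before stimulation (499 ± 21.6 against 335 ± 23.5 TPM, SD, n = 3, log2 0.58 ± 0.14, adjusted P = 0.00788) and after it (531 ± 26.0 against 355 ± 45.8 TPM, log2 0.59 ± 0.14, adjusted P = 0.0138, and 0.0630 without both libraries). *Gnai2*, the main Gi subunit of lymphocytes, fell after PMA/I without IL-2 from 287 ± 23.4 to 123 ± 37.3 TPM (log2 -1.25 ± 0.20, adjusted P = 0.000270), and was higher with IL-2 after stimulation (log2 1.35 ± 0.20, adjusted P = 0.00117). *Gna13* rose after PMA/I with IL-2 from 68.8 ± 4.43 to 129 ± 5.08 TPM (log2 0.90 ± 0.13, adjusted P = 0.000504), and the Gq family members *Gna11* (log2 -1.53 ± 0.21, adjusted P = 0.000327) and *Gna15* (log2 -1.26 ± 0.22, adjusted P = 0.00154) fell. Of these, the drop of *Gnai2* was past the threshold as labelled too (adjusted P = 0.0230).

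Among the 11 beta and gamma subunits, *Gnb2* moved as *Gnai2* did, from 168 ± 9.499 to 70.2 ± 20.7 TPM after PMA/I without IL-2 (log2 -1.28 ± 0.20, adjusted P = 0.000253). *Gnb1* was higher with IL-2 before stimulation (158 ± 6.30 against 93.5 ± 9.59 TPM, log2 0.75 ± 0.16, adjusted P = 0.00458), and *Gng2* was lower (27.2 ± 0.821 against 52.6 ± 7.72 TPM, log2 -0.91 ± 0.16, adjusted P = 0.00125). Of the 7 chaperones and modulators of nucleotide exchange, *Gpsm3*, which binds Gi alpha in its GDP form, fell after PMA/I without IL-2 (log2 -2.06 ± 0.28, adjusted P = 9.18e-05) and *Gpsm2* fell too (log2 -2.05 ± 0.55, adjusted P = 0.00740).

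Receptor kinases and arrestins, which desensitize receptors in parallel with RGS proteins, were lower wherever they passed, with IL-2 as after PMA/I. After PMA/I without IL-2, 5 of 6 fell (41.1% of all genes did, and 0 of the 6 passed as labelled), among them *Arrb2* (139 ± 28.5 to 32.7 ± 13.1 TPM, log2 -2.11 ± 0.29, adjusted P = 0.000113) and *Grk6* (160 ± 21.1 to 60.5 ± 20.6 TPM, log2 -1.44 ± 0.27, adjusted P = 0.000864). *Adrbk1*, the kinase also named Grk2, was lower with IL-2 before stimulation (149 ± 12.5 against 278 ± 18.3 TPM, log2 -0.90 ± 0.22, adjusted P = 0.00888).

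Of the 13 effectors, 7 fell after PMA/I with IL-2 (23.3% of all genes did) and 10 without it (41.1%), and as labelled 0 passed in either. *Pik3cg*, the PI3 kinase switched on by beta-gamma subunits, fell with IL-2 (log2 -2.18 ± 0.46, adjusted P = 0.00415) and without it (log2 -2.91 ± 0.46, adjusted P = 0.000256). *Adcy7*, which makes cAMP, fell from 96.1 ± 6.62 to 20.8 ± 6.44 TPM without IL-2 (log2 -2.19 ± 0.23, adjusted P = 1.55e-05). Before stimulation *Arhgef12*, which has an RGS-like domain of its own, was lower with IL-2 (2.56 ± 1.49 against 14.4 ± 4.69 TPM, log2 -2.13 ± 0.33, adjusted P = 0.000721), as was the phospholipase *Plcb2* (8.55 ± 0.407 against 22.1 ± 6.19 TPM, log2 -1.24 ± 0.24, adjusted P = 0.00266).

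The receptors split after PMA/I. With IL-2, 13 of 41 rose and 8 fell (11.8% and 23.3% of all genes did), and without IL-2 17 rose and 11 fell (20.1% and 41.1%). *S1pr1*, the receptor that T cells need to leave lymphoid tissue, fell from 152 ± 42.8 to 7.06 ± 2.01 TPM with IL-2 (log2 -4.24 ± 0.39, adjusted P = 2.31e-05) and from 403 ± 76.9 to 11.02 ± 7.31 TPM without it (log2 -5.24 ± 0.39, adjusted P = 2.37e-06). *S1pr4* and the homing receptor *Ccr7* fell too after PMA/I with IL-2 (log2 -3.28 ± 0.38 and -3.28 ± 0.46, adjusted P = 0.000119 and 0.000371). The prostaglandin E2 receptor *Ptger2* rose with IL-2 from 3.59 ± 1.14 to 33.2 ± 12.7 TPM (log2 2.85 ± 0.39, adjusted P = 0.000335), and the chemokine receptor *Ccr8* (log2 4.17 ± 0.62, adjusted P = 0.000172) and the adenosine receptor *Adora2b* (log2 4.03 ± 0.53, adjusted P = 7.52e-05) rose without IL-2.

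Receptors were also among the genes that were lower with IL-2. Before stimulation 14 of 41 were lower and 2 higher (22.3% and 17.3% of all genes were). Those lower were led by the lysophospholipid receptors *Gpr132* (41.9 ± 10.9 against 148 ± 30.3 TPM, log2 -1.81 ± 0.28, adjusted P = 0.000711) and *Gpr174* (10.99 ± 2.19 against 40.6 ± 6.76 TPM, log2 -1.80 ± 0.26, adjusted P = 0.000491). After stimulation 7 were lower and 1 higher (8.4% and 12.9% of all genes were), and without both libraries 3 and 0 (2.68% and 6.94%). *Gpr18* was lower with IL-2 (49.7 ± 7.29 against 148 ± 1.14 TPM, log2 -1.56 ± 0.25, adjusted P = 0.00185), as was the adenosine receptor *Adora2a* (27.7 ± 3.53 against 68.6 ± 7.61 TPM, log2 -1.28 ± 0.19, adjusted P = 0.00114). In the comparisons for which the receptors are named here, none passed the threshold as labelled, their adjusted P lying between 0.0519 and 0.639.

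**Figure D5:**
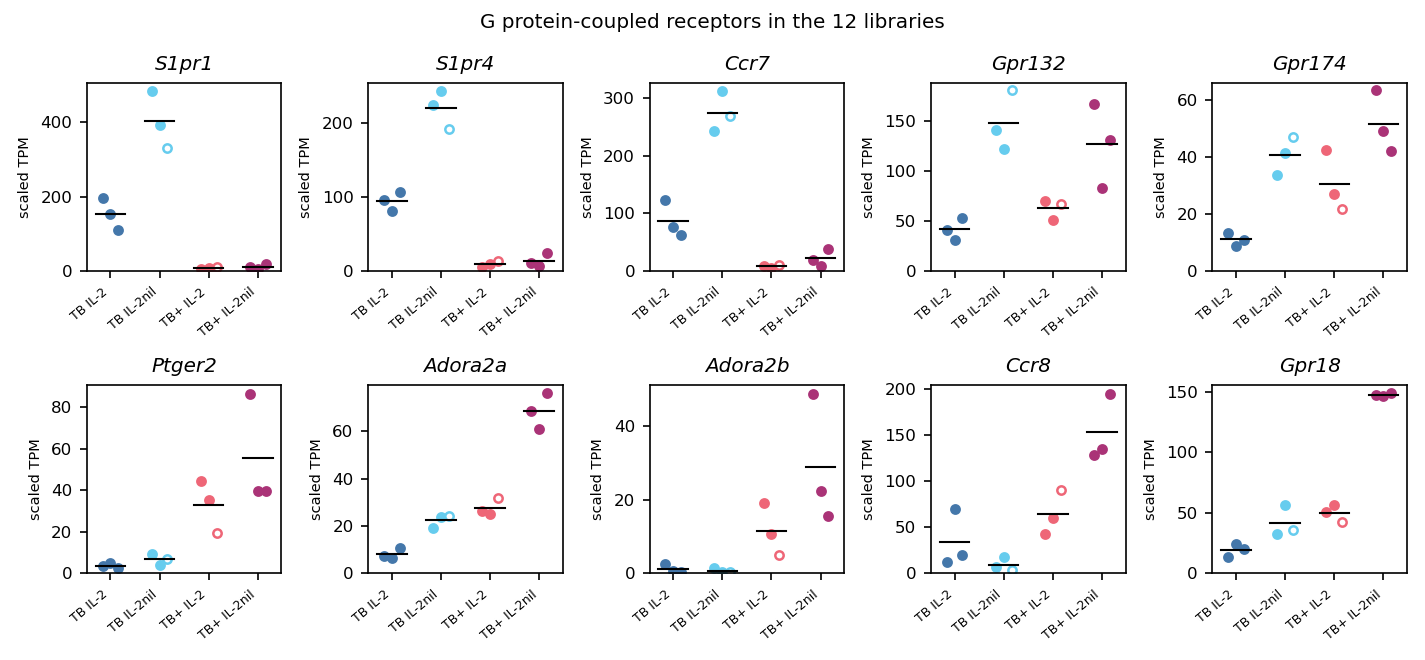
Scaled TPM (y axes, from 0, with a scale of its own for each gene) of 10 G protein-coupled receptors in the 4 groups; points are libraries, open points the libraries labelled as the other's group and lines means of 3 libraries. *S1pr1*, *S1pr4* and *Ccr7* lie near 0 in both stimulated groups, and *Adora2a* and *Gpr18* have their highest means in TB+ IL-2nil.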

How the data were processed

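RNA-Seq was done on 12 libraries of mouse CD4 T-blast cells in 4 groups of 3. The authors isolated total RNA, depleted ribosomal RNA and sequenced stranded, paired-end libraries, with dead cells removed from cultures where needed. Per the submitters' processing notes and methods, Trimmomatic 0.32, HISAT2 2.1.0 and StringTie 1.3.3 were used with mm9, and the deposited values are FPKM per gene, with no read counts and no depth. The labels do not say whether the samples of a group were separate animals or cultures, so P values measure only the spread between these samples.

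FPKM values were converted to TPM, genes above 1 TPM in at least 1 library were kept (12442 of 24439), the 75th percentiles of all libraries were made equal, and limma 3.58.1 in R 4.3.3 was fitted to log2(TPM + 1), with 4 groups, 8 residual degrees of freedom and Benjamini-Hochberg adjustment over all genes tested. Fold changes on this scale understate the change of low genes. Calls needed more than 3-fold and adjusted P under 0.05, or the adjusted P alone for pathway lists and the interaction. The fit was tested on simulated data. The libraries labelled TB IL-2nil replicate 3 and TB+ IL-2 replicate 3 were placed in each other's group. Same-numbered libraries deviated together from their group means (18 of 18 correlations over 0.1, from 0.101 to 0.531, against -0.416 to 0.171 for the 36 other pairs). The ranges overlap, deviations from a group mean sum to 0, which lowers the other pairs, and the labels state no pairing. The number may thus pair the samples, and a block on it was tried. The other alternatives were the labels as given, both libraries left out, other filters, a pseudocount of 0.1, no scaling, quantile normalization, a limma trend and each library left out in turn.

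The 7 genes and all lists were chosen with earlier results of these data known. From each pathway list, up to 4 genes per comparison were eligible to be named, those with the largest difference among genes past the adjusted P and over 5 TPM in the mean of 1 group. Likeness named the 2 nearest genes of at least 5 TPM. Positions are from GENCODE M1 on mm9 and upstream sequences from RefSeq. A gene of a marker list is not reported here.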

Additional observations from a re-analysis of the deposited data

Results flagged for a closer look

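The effect of IL-2 on a pair of G protein-coupled receptors went one way before PMA/I and the other way after it in all 3 numbered pairs of libraries. For *Ccr8* the difference (with minus without IL-2, log2) was 1.66 before stimulation, with pairs at 0.86, 1.90 and 2.23, and -1.27 after it, with pairs at -1.56, -1.17 and -1.09. For *Adora2b* it was 0.27 before stimulation, with pairs from 0.13 to 0.53, and -1.26 after it, with pairs from -1.46 to -1.01. These receptors were picked for this pattern, and the separate differences did not pass for *Ccr8* (limma adjusted P = 0.0519 before and 0.168 after) or *Adora2b* (0.712 and 0.114), whose means before stimulation were only 1.17 TPM with IL-2 and 0.713 without it. In the limma fit over all genes the interaction did not pass for *Ccr8* (log2 -2.94 ± 0.87 (SE), adjusted P = 0.0830) or *Adora2b* (log2 -1.54 ± 0.75, adjusted P = 0.246), and with the replicate block the adjusted P was 0.0389 and 0.0121.

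The gamma subunit *Gng2* was the pathway gene for which the effects of PMA/I with and without IL-2 differed by the interaction term itself. The effect with IL-2 minus the effect without it was 1.04 ± 0.22 on the log2 scale (limma adjusted P = 0.0309). Its mean was 52.6 TPM in TB IL-2nil and 22.1 to 27.2 TPM in the other groups. The adjusted P was 0.914 as labelled, 0.0867 without both exchanged libraries, 0.152 without scaling, 0.0211 with the block, and 0.0235 to 0.0771 with 1 library left out, under 0.05 without TB IL-2 replicate 1, TB IL-2nil replicate 1 or TB+ IL-2nil replicate 3 and above it without any of the other 9.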

How the results depend on the processing

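Counts of calls depended most on the placement of the exchanged libraries. With the labels as given, genes past 3-fold and the adjusted P numbered 12, 44, 255 and 15 for IL-2 before stimulation, PMA/I with IL-2, PMA/I without IL-2 and IL-2 after stimulation (923, 876, 2296 and 451 as reported), the RGS genes among them 0 for PMA/I with and without IL-2 (4 and 3), and genes past the adjusted P 15, 62, 669, 27 and, for the interaction, 0 (4929, 4372, 7614, 2644 and 526). The pathway-list counts were then 0, 2, 5, 0 and 0 (29, 40, 58, 14 and 1). *S1pr1* (0.25) and *S1pr4* (0.026) for IL-2 before stimulation and *Plcb2* (0.14) for PMA/I with IL-2 turned sign. Of 250 single-gene differences, 150 kept direction and side of the threshold as labelled, 97 lost the threshold and 3 turned sign. Without both libraries, 2 RGS genes were called for IL-2 before stimulation (*Rgs10* joined *Rgs2*), 5 list genes and 1197 genes passed for IL-2 after stimulation, and 0 list genes and 4 genes for the interaction. A pseudocount of 0.1 gave 1470, 3472 and 691 genes past 3-fold for PMA/I with IL-2, without IL-2 and IL-2 after stimulation, and 241 for the interaction. Without scaling, the median difference of all genes was -0.78 for PMA/I without IL-2 and 0.23 for IL-2 after stimulation, and 18 list genes and 2650 genes passed for IL-2 before stimulation, 2434 genes for PMA/I with IL-2, 4 and 1486 for IL-2 after stimulation, and 0 and 1 for the interaction. Higher genes made up 42.2% of the 3-fold calls for PMA/I without IL-2, 20.1% without scaling and 57.8% with quantile normalization, which also gave 2 RGS genes for IL-2 before stimulation, 3 list genes for the interaction, and other signs for *Gnas* (-0.55) and *Gna12* (0.048) for PMA/I without IL-2. With the replicate block, 47 list genes passed for IL-2 before stimulation, 25 list genes and 4186 genes for IL-2 after stimulation and 12 and 1478 for the interaction. With 1 library left out, called RGS genes numbered 1 to 2 for IL-2 before stimulation (*Rgs10* joined without the library labelled TB+ IL-2 replicate 3) and 0 to 1 for IL-2 after it (*Rgs16*, without TB+ IL-2 replicate 1 or 2 or TB+ IL-2nil replicate 3). List genes then numbered 6 to 16 and all genes 1431 to 2600 for IL-2 after stimulation, with the lowest counts without the library labelled TB IL-2nil replicate 3. For the interaction they numbered 0 to 7 and 85 to 1314, lowest for all genes without TB IL-2nil replicate 2 and highest without TB+ IL-2nil replicate 3. The cause of these shifts was not tested. Of 5245 values for single genes under the alternatives, 4896 kept direction and side of the threshold. Of 735 for the 7 RGS genes, 24 changed sign, among them *Rgs19* for IL-2 after stimulation without scaling (0.09). Counts of reads were not at hand, so the precision of low values such as *Rgs16* before stimulation is unknown.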
